A study of Homo sapiens with 6 samples.

Results

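Translesion synthesis and fork tolerance genes were examined in OVCAR3 cells, an established HGSOC (high-grade serous ovarian cancer) line, after inhibition of the kinases CDK12 and CDK13. The 10 genes are the bypass polymerases POLH, POLI, POLK, REV1 and REV3L, the primase-polymerase PRIMPOL, the ubiquitin ligases RAD18, HLTF and SHPRH, and the fork repair factor MMS22L. They were chosen by symbol for their role in tolerating DNA damage, and each matched 1 of the 47577 loci in the table. PolyA RNA was sequenced from 3 repeats given DMSO, the solvent, and 3 repeats given 200 nM THZ531, a covalent CDK12/13 inhibitor, each for 6 h. The sample titles and treatment field name THZ531, whereas the protocol text shared by all samples names THZ1 at the same dose. The groups follow the titles. All 6 samples come from this 1 cell line, and p-values measure the spread between its repeats.

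Replicative DNA polymerases stall at damaged bases. Translesion polymerases have a wider active site that can copy past the lesion, at the price of lower accuracy. The switch is controlled by ubiquitin on PCNA, the sliding clamp. RAD18 attaches a single ubiquitin that recruits the bypass polymerases, and HLTF or SHPRH can extend it to a chain that directs template switching. PRIMPOL restarts synthesis beyond the lesion, leaving a gap, and MMS22L acts with its partner TONSL in repair at stalled or broken forks. In ovarian cancer these routes are studied because platinum drugs leave adducts and crosslinks that stall forks.

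The libraries held from 53054048 to 70986130 reads assigned to genes. The values are normalized read counts, that is reads divided by a size factor per library, and are not corrected for gene length. Loci that reached 10 in 3 or more of the 6 libraries counted as expressed (17568 loci). A locus was called higher or lower at a fold change of at least 1.5 with an unadjusted p of at most 0.05 in limma on log2(value + 1), the scale of every log2 fold change below. Adjusted p-values are Benjamini-Hochberg values over all expressed loci. The 5 markers of the line (PAX8, WT1, KRT7, EPCAM and MUC16) were present in every library. PAX8 fell from 11272 ± 545 to 1241 ± 121 (SD, n = 3; log2 fold change -3.18, adjusted p = 4.6e-15, limma), and the other 4 were not called. Of the 6 markers of other cell types, CD3E was at 0 in all libraries and DCN was at or below 3.19, while PTPRC (18.2 to 52.7) and PECAM1 (39.0 to 86.5) were low and overlapped between the groups. VWF was between 69.4 and 121 in DMSO and between 140 and 150 in THZ531, and COL1A1 between 942 and 1034 in DMSO and between 2057 and 2338 in THZ531. Both were called higher (log2 fold changes of 0.73 and 1.14, adjusted p = 0.0074 and 2.8e-10, limma), and the part of these markers in the results was not tested. Because RNA was taken in bulk, fewer cells with a transcript and less of it per cell cannot be told apart.

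All 10 genes were expressed, and they did not move as a group. POLH, POLI and PRIMPOL were lower and RAD18 and MMS22L higher in THZ531, while POLK, REV1, REV3L, HLTF and SHPRH were not called. The 3 genes called lower compare with 23.9% of all expressed loci called lower, and the 2 called higher with 15.7% called higher. In 8 genes the DMSO and THZ531 libraries did not overlap, as in 71.7% of all loci, and the same number had an adjusted p no larger than 0.05 (limma), as in 68.6% of all loci. The median log2 fold change was 0.09 for the 10 genes and -0.01 for all expressed loci, with 5 genes above 0 and 5 below.

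**Figure D1:**
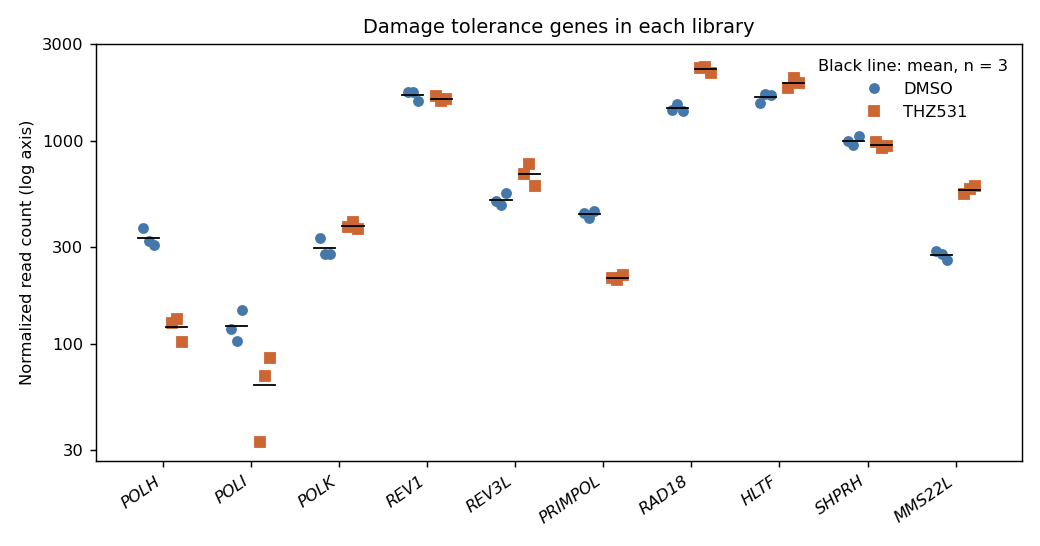
Normalized read count (log axis) of each of the 10 genes in the 3 DMSO libraries (circles) and the 3 THZ531 libraries (squares), with the group mean as a black line. The libraries of REV1 and SHPRH overlap between the groups, and those of the other 8 genes do not.

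POLH encodes polymerase eta, the enzyme that copies past ultraviolet damage accurately and whose loss causes the variant form of xeroderma pigmentosum. It is also 1 of the genes that the study picked from these libraries, so its direction here is not independent evidence. The study measured POLH separately by quantitative PCR. It reported a fall in another set of OVCAR3 cells and, in its text, in patient-derived organoids. The gene lies on the plus strand at chr6:43576150-43620523 (hg38). Its normalized count was 372, 321 and 306 in the DMSO libraries and 126, 133 and 102 in the THZ531 libraries. Every treated library was below every control library, and the mean fell from 333 ± 34.9 to 120 ± 16.03 (SD, n = 3), the largest change among the 10 genes. The log2 fold change was -1.46 ± 0.15 (SE), with an adjusted p of 3.1e-07 (limma).

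Inside POLH, the table lists a separate locus without a symbol that moved the other way. It spans chr6:43588226-43592030 (3805 bases), lies wholly in intron 4 of the canonical transcript (chr6:43587490-43597695, 10206 bases) and starts 737 bases after the 5′ splice site. No exon of any POLH transcript in GENCODE v44 touches it. The order of identifiers in the table places it on the strand of POLH, a way of reading strand that gave the annotated strand for 99.0% of 22877 named loci. Its count was 59.5, 109 and 75.8 in DMSO and 297, 409 and 315 in THZ531. All treated libraries were higher than all controls, and the mean rose from 81.6 ± 25.5 to 341 ± 60.2 (SD, n = 3; log2 fold change 2.08 ± 0.21 SE, adjusted p = 2.1e-07, limma). Relative to the count on POLH itself, the intronic locus stood at 0.16, 0.34 and 0.25 in DMSO and at 2.36, 3.08 and 3.08 in THZ531. Under treatment the intronic locus thus held more reads than the gene around it.

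A rise was common among the expressed loci of this kind. Of 830 expressed loci without a symbol that lie inside 1 named gene on its strand, 50.7% were called higher. A locus called higher within a gene called lower, as at POLH, was found for 67 of the 819 whose host gene was expressed (8.18%). Such loci could reach the minimum for expression through the THZ531 libraries alone, where they were high. Both shares may rest partly on that filter and are descriptions without a test. The locus in POLH was above the minimum in all 6 libraries. The hexamer AATAAA, the usual core of a polyadenylation signal, was searched on the transcribed strand only, with overlapping matches counted. POLH intron 4 holds 13 matches, and 2 of them fall inside the locus. Both are printed with 12 bases on each side and the hexamer in capitals, because they are the only matches within the stretch whose reads rose. The first is at chr6:43590058-43590063, after 2568 bases of the intron, and the second at chr6:43591153-43591158, after 3663 bases.
POLH intron 4, first hexamer: tagaattaggacAATAAAaacttgcttttg
POLH intron 4, second hexamer: aatataatggacAATAAAgatgtgccactt
Matches of this kind are frequent. At the same distance from the 5′ splice site, 88.6% of 33408 windows of that length in introns of expressed genes held at least 1, and 73.4% held at least 2. Of 3076 introns within 10% of the length of POLH intron 4, 27.1% held at least as many. A match is a description of the sequence and not evidence of its use.

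**Figure D2:**
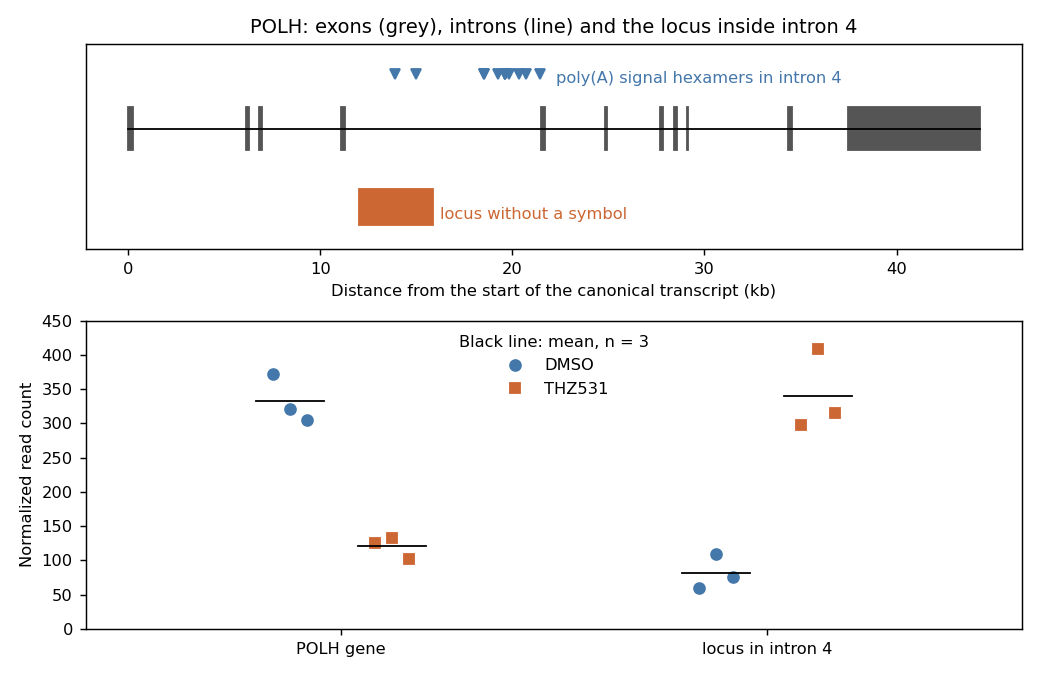
Top, the canonical POLH transcript in kb from its start, with exons as grey boxes, the unnamed locus in orange and the 13 hexamers of intron 4 as triangles. Bottom, normalized read counts of POLH and of the locus in each library, with the mean as a line: the gene fell from 333 to 120 while the locus in intron 4 rose from 81.6 to 341.

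PCR primers designed for POLH are printed here because they show which side of intron 4 such an assay reads. The forward primer lies in exon 5 (chr6:43597779-43597798) and the reverse primer in exon 6 (chr6:43601010-43601029), both downstream of the intronic locus.
POLH ex5 fw: gtgggagcagtgattgtgga
POLH ex6 rv: gcggttgggcttgtttagtc
A pair placed there reads transcripts that continue beyond intron 4, whereas the table gives 1 count for all exons of the gene.

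POLI encodes polymerase iota, a close relative of POLH that inserts opposite the first base of some lesions. It lies at chr18:54269479-54321266 and was the least covered of the 10 genes, with 111 to 183 reads in DMSO and 26 to 75 in THZ531. Its normalized count was 118, 103 and 146 in DMSO and 32.7, 69.3 and 85.3 in THZ531. The groups did not overlap, but the treated libraries spread widely, with replicate 1 below the other two. The mean fell from 122 ± 21.8 to 62.5 ± 27.0 (SD, n = 3; log2 fold change -1.05 ± 0.30 SE, adjusted p = 0.0055, limma). Without THZ531 replicate 1 the log2 fold change was -0.65 and POLI was still called lower.

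POLK encodes polymerase kappa, which extends past bulky adducts on guanine. The gene lies at chr5:75511750-75605820. Counts were 331, 277 and 277 in DMSO and 375, 400 and 366 in THZ531. The treated libraries were all above the controls, with means of 295 ± 31.1 and 381 ± 17.5 (SD, n = 3), but the difference stayed under 1.5-fold (log2 fold change 0.37 ± 0.11 SE, adjusted p = 0.0088, limma). Of these 3 polymerases, POLH and POLI were thus called lower and POLK was not called.

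REV1 and REV3L are the remaining bypass polymerases among the 10 genes. REV1 inserts cytosine and holds the other polymerases in place, and REV3L is the catalytic subunit of polymerase zeta, which extends from the inserted base. REV1 (chr2:99400477-99490037) was the most abundant of the bypass polymerases by count, with 1741, 1744 and 1577 in DMSO and 1663, 1570 and 1608 in THZ531. These groups overlapped, and no difference was detected (log2 fold change -0.06 ± 0.06 SE, adjusted p = 0.35, limma). REV3L (chr6:111299029-111483715), the longest of the 10 genes, was at 506, 483 and 551 in DMSO and at 684, 771 and 597 in THZ531. The groups did not overlap, yet the log2 fold change of 0.41 ± 0.10 (SE, adjusted p = 0.0018, limma) was under the fold threshold by 0.18.

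PRIMPOL lowers the need for bypass at the fork itself by priming anew beyond the lesion. It lies at chr4:184649667-184694958. Counts were 443, 417 and 452 in DMSO and 212, 207 and 217 in THZ531. The libraries within each group lay close together, and the mean fell from 437 ± 18.2 to 212 ± 5.2 (SD, n = 3; log2 fold change -1.04 ± 0.11 SE, adjusted p = 4.0e-07, limma).

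Of the 3 ligases among the 10 genes, RAD18 was called higher and the others were not called. RAD18 (chr3:8877075-8963472), which attaches the first ubiquitin, was at 1424, 1523 and 1404 in DMSO and at 2273, 2302 and 2168 in THZ531. Its mean rose from 1450 ± 63.4 to 2248 ± 70.3 (SD, n = 3; log2 fold change 0.63 ± 0.06 SE, adjusted p = 4.7e-08, limma), which is past the fold threshold by 0.05 on the log2 scale. HLTF (chr3:149030063-149086554), which extends the chain and can also reverse forks, was at 1528, 1705 and 1686 in DMSO and at 1829, 2032 and 1928 in THZ531. All treated HLTF libraries were above the controls, but the log2 fold change was only 0.24 ± 0.06 (SE, adjusted p = 0.0029, limma). SHPRH (chr6:145884807-145964423), the related ligase, was at 1000, 950 and 1058 in DMSO and at 990, 926 and 944 in THZ531. These groups overlapped (log2 fold change -0.07 ± 0.07 SE, adjusted p = 0.37, limma).

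MMS22L rose most. It lies on the minus strand at chr6:97142161-97283217. Its counts were 286, 277 and 259 in DMSO and 544, 576 and 597 in THZ531. Every treated library was well above every control, and the mean rose from 274 ± 13.5 to 573 ± 26.8 (SD, n = 3; log2 fold change 1.06 ± 0.10 SE, adjusted p = 1.0e-07, limma). Its partner TONSL had means of 6512 ± 86.2 in DMSO and 7660 ± 94.7 in THZ531 (SD, n = 3). TONSL was not called (log2 fold change 0.23 ± 0.04 SE, adjusted p = 3.0e-05, limma).

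The study counted MMS22L among the genes in which THZ531 changed the choice of last exon, and checked this directly. Primers were also designed for a junction and an intron of MMS22L. They are printed here because they mark the stretch in which spliced and unspliced transcripts differ. Their names use an exon number that is 1 higher than in the canonical transcript. The forward primer lies in exon 9 (chr6:97263405-97263425), the exonic reverse primer in exon 10 (chr6:97254634-97254653), and the intronic reverse primer spans bases 4 to 26 of intron 9 (chr6:97263309-97263331).
MMS22L ex10 Fw: gagtgaccagtgtccatgttt
MMS22L ex11 Rv: atggatccctggactggatt
MMS22L int10 Rv: accaacacatcaattttccaact
Intron 9 holds 16 matches to AATAAA, and 8.51% of 3643 introns of similar length hold at least as many. Matches 3 to 10 lie in an exon of MMS22L-211, which GENCODE v44 annotates as a transcript with a retained intron. The first match, at chr6:97262973-97262978, comes after 356 bases, and 20.6% of 117041 introns hold a match by that point.
MMS22L intron 9, first hexamer: gatttgtggagaAATAAAacaggtttctat
The table lists no separate locus inside MMS22L, so reads in this intron cannot be seen on their own. Whether they enter the count of MMS22L, and what share of the rise they would carry, was not tested.

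The 3 alternative scalings all lower every log2 fold change. They could therefore weaken a rise but could not bring a fall back within the fold threshold. Scaling to the upper quartile of the expressed loci shifts the values by -0.02, and the 2 calls higher and 3 calls lower stayed. Giving each library the same total shifts every log2 fold change by -0.24, and scaling to RPL34, the ribosomal protein gene used as the PCR reference in the study, shifts it by -0.49. POLH, POLI and PRIMPOL were called lower under both. MMS22L was still called higher with the same total (0.82) but not with RPL34 (0.57). RAD18 was called higher under neither, with log2 fold changes of 0.39 and 0.14. POLK, REV3L and HLTF were above 0 as deposited and below 0 with RPL34, HLTF also with the same total.

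**Figure D3:**
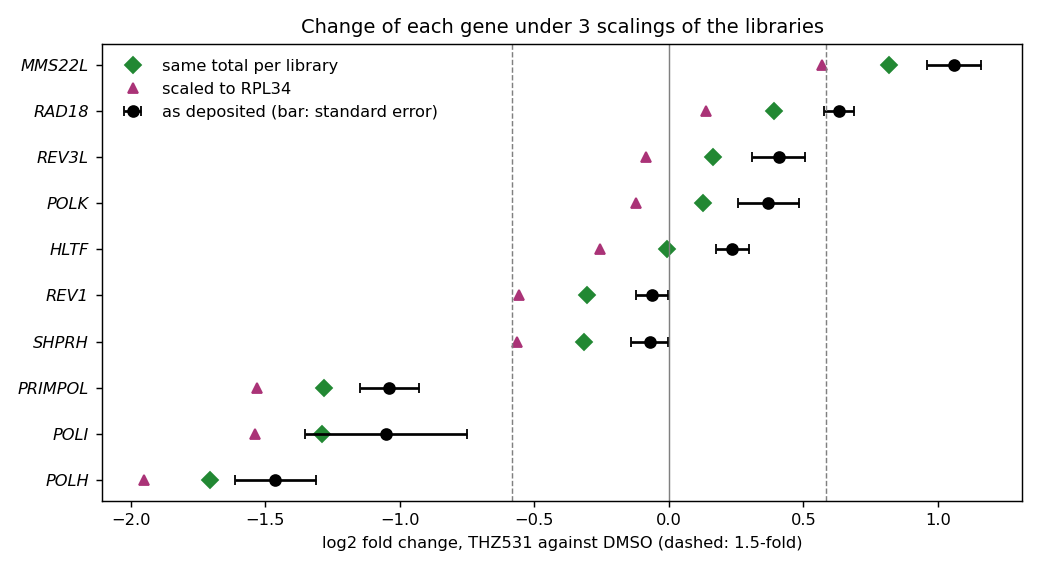
Log2 fold change of THZ531 against DMSO for the 10 genes as deposited (black, bars are standard errors), after scaling to the same total (green) and to RPL34 (purple); dashed lines mark 1.5-fold. POLH, POLI and PRIMPOL lie beyond the lower line in all 3, whereas MMS22L and RAD18 end inside the upper line with RPL34.

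Ratios between 2 genes of the same library do not depend on the scaling. POLK over POLH was 0.89, 0.86 and 0.91 in DMSO and 2.98, 3.01 and 3.58 in THZ531. These are ratios of counts that are not corrected for length, so only their change between the groups can be read. Per kb of merged exons, POLH and POLK had means of 39.8 and 21.6 in DMSO and of 14.4 and 27.8 in THZ531. REV1 over PRIMPOL rose from a mean of 3.87 to 7.61. RAD18 over HLTF was 0.93, 0.89 and 0.83 in DMSO and 1.24, 1.13 and 1.12 in THZ531. MMS22L over TONSL had means of 0.042 and 0.075. The 4 ratios were chosen after the values had been seen, and each sets a called gene against a gene that was not called. In each of them the groups did not overlap, which that choice made likely beforehand. The exact two-sided permutation test gave p = 0.1 (0.1 after Benjamini-Hochberg adjustment). This is the smallest value that 3 against 3 libraries allow, so the test cannot reach 0.05.

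Levels were compared between genes as normalized count per kb of merged exons. In DMSO, HLTF led with 272 ± 16.1 (SD, n = 3), ahead of RAD18 (223 ± 9.75) and REV1 (217 ± 12.3), which did not differ from each other beyond their spread. PRIMPOL followed with 157 ± 6.55, then SHPRH with 57.5 ± 3.09. REV3L (41.3 ± 2.75) and POLH (39.8 ± 4.18) were indistinguishable. POLK stood at 21.6 ± 2.27, and POLI (13.1 ± 2.33) and MMS22L (12.6 ± 0.62) shared the last place. Per length, the ligases and REV1 were therefore more abundant than POLH, POLI and POLK before treatment.

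After THZ531 the order at the top was RAD18 (346 ± 10.8 per kb) and HLTF (320 ± 16.9 per kb), whose intervals of 1 SD met, then REV1 (208 ± 6.00 per kb) and PRIMPOL (76.1 ± 1.87 per kb). REV3L (55.1 ± 6.98 per kb) and SHPRH (54.7 ± 1.88 per kb) did not differ beyond their spread, nor did POLK (27.8 ± 1.28 per kb) and MMS22L (26.3 ± 1.23 per kb). POLH (14.4 ± 1.92 per kb) and POLI (6.68 ± 2.88 per kb) came last. POLH went from rank 7 to rank 9 and MMS22L from rank 10 to rank 8. The length taken matters for the order: with the length of the canonical transcript, an alternative added after the values had been seen, REV1 led in DMSO with 357 per kb and MMS22L stood at 32.0 per kb, above POLI (20.3 per kb) and POLK (20.2 per kb).

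Besides the locus in POLH, 6 loci without a symbol lie inside the 10 genes, 2 in REV1, 1 in RAD18, 1 in REV3L and 2 in SHPRH, and only those in REV3L and 1 of those in SHPRH were expressed. The REV3L locus (chr6:111309203-111313517) spans exons 28, 29 and 30 of the canonical transcript and is placed on the opposite strand by the order of identifiers. Reads in the bases shared with those exons cannot be told apart. The locus was at 25.4, 23.2 and 33.5 in DMSO and at 2.5, 6.8 and 3.4 in THZ531. Its treated libraries held only 2, 6 and 3 reads. It reached the minimum for expression only through the DMSO libraries, where it was high, so its call lower is a description without a test; 29.7% of 293 expressed loci of that kind were called lower. It dropped under the minimum for expression when any DMSO library was left out. The SHPRH locus (chr6:145895036-145897422, intron 25) was at 9.5, 14.8 and 11.97 in DMSO and at 15.1, 2.3 and 0 in THZ531. Its groups overlapped and it was not called (adjusted p = 0.082, limma).

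Several of the 10 genes share bases with a gene on the other strand, and the strand setting of the counting is not given in the sources used here, so reads in the shared bases cannot be told apart. POLH shares 42 bases with GTPBP2, a gene for a GTP-binding protein, which fell from 1635 ± 89.1 to 312 ± 14.7 (SD, n = 3; log2 fold change -2.39, adjusted p = 7.5e-13, limma). PRIMPOL shares 878 bases with CENPU, a centromere protein gene, which was called higher (log2 fold change 0.60, adjusted p = 1.5e-07, limma) where PRIMPOL was lower. REV1 shares 850 bases with EIF5B (14454 and 21416 in DMSO and THZ531, log2 fold change 0.57, not called), whose count is far above that of REV1. HLTF shares 1713 bases with GYG1, which differed by -0.02 on the log2 scale, and POLK shares 389 with CERT1, at 0.38. REV3L shares 244 bases with TRAF3IP2-AS1 (log2 fold change -0.21, not called). SHPRH shares 1779 bases with FBXO30-DT and HLTF shares 223 with HLTF-AS1, neither of which was expressed. These neighbours were listed for their position and not by their values.

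The 10 genes are long. All lie above the median length of the 14503 expressed genes matched to GENCODE v44, with medians of 83007.5 and 28596 bases, and all have more exons than the median gene (medians of 19 and 8). The longest intron was above the median of all genes in 7 of the 10. Each also holds more AATAAA hexamers on its transcribed strand than the median gene (medians of 86 and 20), and 9 hold more per kb (medians of 1.23 and 0.75). Among the 10, the genes called lower were the shortest, POLH (44374 bases), PRIMPOL (45292 bases) and POLI (51788 bases), while MMS22L (141057 bases) and REV3L (184687 bases) were the longest and lay above 0. Length and log2 fold change had a Spearman correlation of 0.84 over the 10 genes and -0.05 over all 14503. Length gave the highest of the correlations computed over the 10 genes. The others were 0.76 for the longest intron, 0.75 for the number of hexamers and 0.55 for hexamers per kb. Exon number gave 0.50, the length of the canonical transcript 0.33 and the first intron -0.01. These are descriptions over genes of the same libraries, which are not independent replicates.

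**Figure D4:**
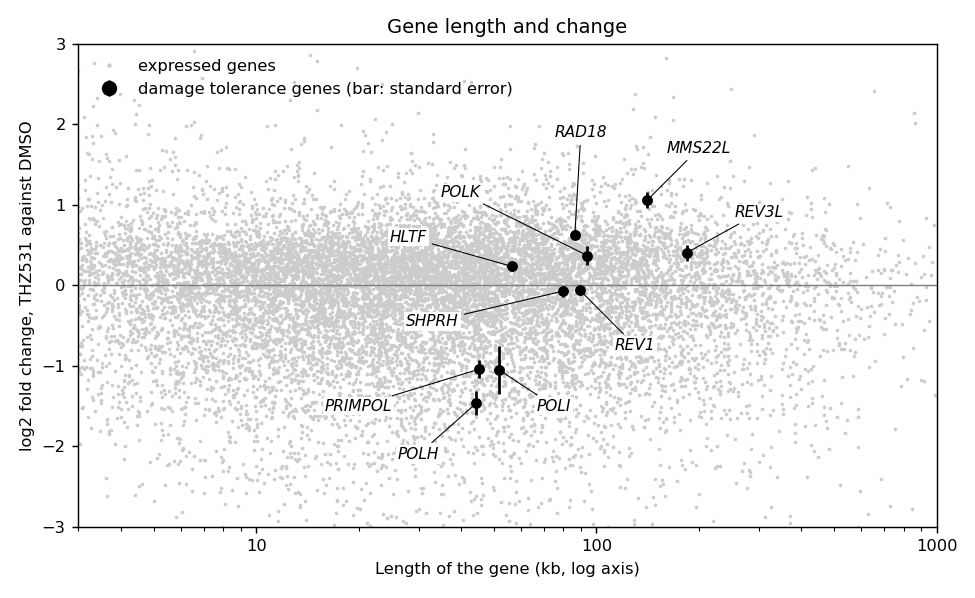
Log2 fold change of THZ531 against DMSO by gene length (kb, log axis) for the 10 genes (black, bars are standard errors) and for 13419 of 14503 expressed genes (grey); the other 1084 lie outside the axes. The 3 genes called lower, POLH, PRIMPOL and POLI, are the shortest of the 10, while the grey points show no such trend (Spearman -0.05).

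Of 36 other damage tolerance genes, listed by role, 35 were expressed (RADX was not), with 4 called higher, 8 called lower and 23 not called. These counts are near the background of 15.7% higher and 23.9% lower among all expressed loci, and their median log2 fold change was 0.03, against -0.01 for all loci. Among PCNA and the 8 enzymes or cofactors of its ubiquitination, 2 were higher and 2 lower. PCNA itself rose from 6136 ± 103 to 11121 ± 300 (SD, n = 3; log2 fold change 0.86 ± 0.04 SE, adjusted p = 1.4e-11, limma). UBE2N, the conjugating enzyme of the chain, was also called higher (0.61), but its cofactor UBE2V2 was called lower (-1.15), as was the ligase RFWD3 (-1.20, from 1820 ± 61.7 to 794 ± 43.97). Thus the pair that builds the ubiquitin chain did not move together.

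Of the 5 genes for removing ubiquitin or PCNA, only USP1, which strips ubiquitin from PCNA, was called (0.61, from 6028 ± 127 to 9223 ± 273). Among 9 polymerase zeta subunits, other bypass polymerases and partners, POLQ, the end-joining polymerase, fell from 917 ± 30.2 to 491 ± 37.8 (-0.90) and POLD3, an accessory subunit of polymerases delta and zeta, from 1079 ± 46.3 to 641 ± 48.6 (-0.75). MAD2L2, which joins REV3L to REV1, was not called (0.09, adjusted p = 0.21, limma). The 1 call higher in this role belongs to a locus that joins HAUS3 and POLN (0.81), and its reads cannot be assigned to POLN.

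In fork reversal and protection, 12 of 13 genes were expressed, none was called higher and 4 were called lower, which with so few genes is not set apart from the background of 15.7% and 23.9%. SMARCAL1, a fork reversal enzyme, fell most, from 781 ± 73.1 to 254 ± 68.3 (-1.65 ± 0.16 SE, adjusted p = 1.3e-07, limma). The helicase FBH1 (-1.35), the translocase ZRANB3 (-1.16) and RPA2, a subunit of the complex on single-stranded DNA (-0.87), were the other three. HLTF, which shares the reversal activity with SMARCAL1 and ZRANB3, was not called, while both of the latter were called lower. FBH1, ZRANB3, RPA2, UBE2N and UBE2V2 were named after their values had been seen. Scaling changed the calls higher of this list to 1 with the same total and to 0 with RPL34, and the calls lower to 11 and 14.

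**Figure D5:**
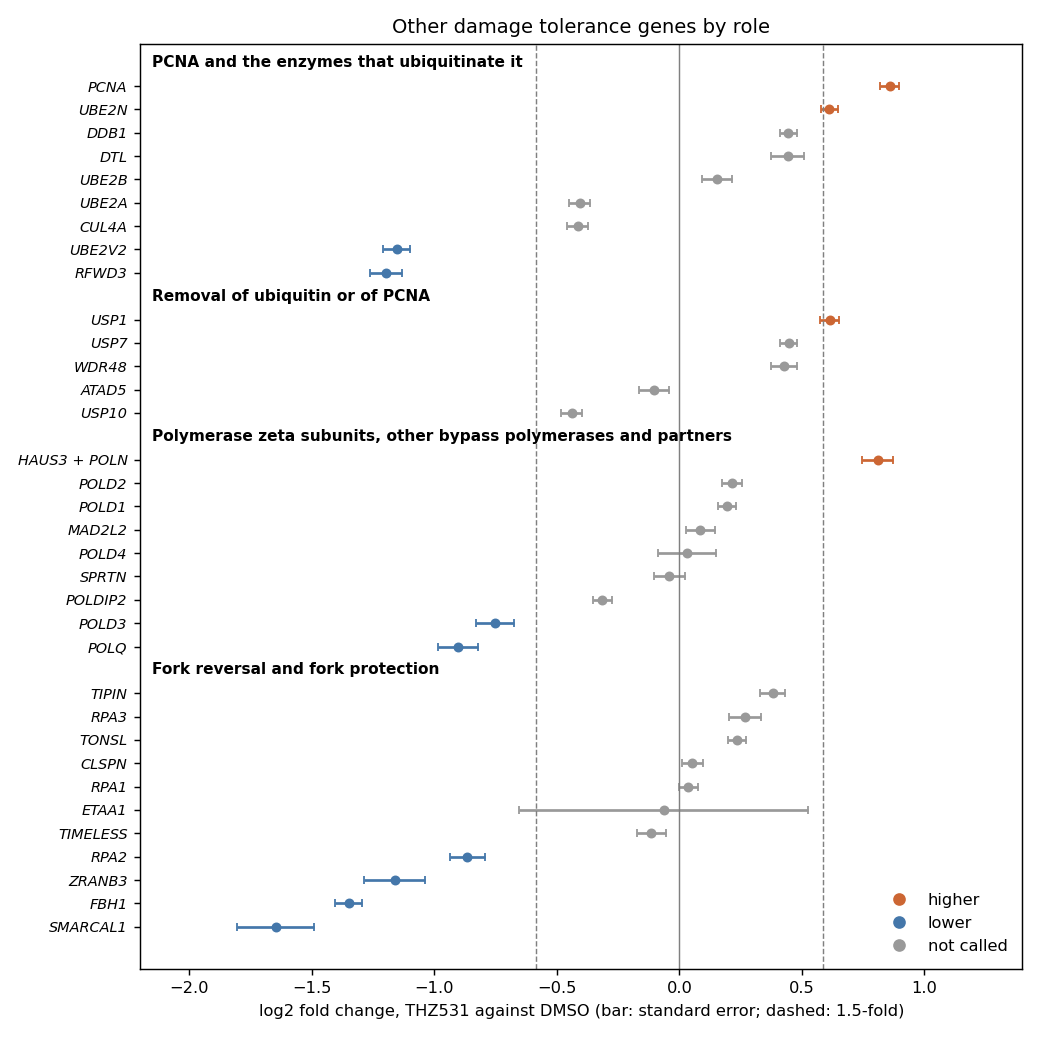
Log2 fold change of THZ531 against DMSO for 34 of the 35 expressed genes of the list, grouped by role (bars are standard errors, dashed lines 1.5-fold, colour marks the call). Under fork reversal and protection 4 of 12 genes were called lower, and PCNA has the highest value of the list (0.86).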

How the data were processed

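The authors built stranded polyA libraries from OVCAR3 cells, aligned the reads to hg38 with STAR (2.7.5a in the submitters' processing notes), assigned them to FAST DB genes with featureCounts and normalized the result with DESeq2. The deposited values are thus a non-negative signal, reads over the size factor of their library. Every value was a whole multiple of 1 read (100% within a tolerance of 0.01), so reads were recovered. The 10 genes, the list of 36 other genes and the tests were chosen with earlier results of these data known. Groups came from the sample titles. limma 3.58.1 (trended variance, R 4.3.3, no covariates) was fitted to log2(value + 1) over the 17568 expressed loci with all 6 libraries, at the thresholds of the study, and was tested on simulated data. On the recovered reads, edgeR 4.0.16 called 2582 loci higher and 4281 lower, against 2751 and 4197 in limma. The genes named were the 10 genes, expressed loci inside them, the most changed called gene of each role in each direction, PCNA, TONSL, MAD2L2 and POLD3, and 1 gene that is not reported here. Overlapping neighbours were added for their position. Gene models and strands came from GENCODE v44, matched by symbol and position for 24323 of 26793 named loci. Primers and hexamers were located in hg38, and coordinates count from 1. Alternatives were pseudocounts of 0.1 and 10, other minima for expression, 3 scalings, the replicate number as a block, edgeR, DESeq2 1.42.0, the adjusted p, a fold change of 2 and leaving out each library. The ratios, the canonical length and leaving out a library with the expressed loci of all 6 kept were added after the values had been seen.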

Additional observations from a re-analysis of the deposited data

How the results depend on the processing

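The 3 calls lower (POLH, POLI, PRIMPOL) were made under every alternative, and the 2 calls higher under all but 3. The 3 scalings all lower the log2 fold changes, so they could not have undone the calls lower. The number of the 10 genes called higher was 1 with the same total, 0 with RPL34 and 1 at a fold change of 2. The calls over all loci moved with scaling from 2751 higher and 4197 lower to 1647 and 5615 with the same total and to 1078 and 7524 with RPL34. At a fold change of 2 they were 1353 and 2689. In the list of 36 genes, the calls higher were 1 with the same total, 0 with RPL34 and 0 at a fold change of 2, and the calls lower 14 with RPL34 and 5 at a fold change of 2. Loci inside the 10 genes called higher were 2 without a minimum for expression. Those called lower were 0 at a minimum of 50 and 2 under both of these scalings, and they ranged from 0 to 1 when a library was left out. Log2 fold changes that changed sign were POLK (-0.12) and REV3L (-0.0845) with RPL34, and HLTF with the same total (-0.0073) and with RPL34 (-0.26). These shifts follow from the scaling itself. Leaving out a library gave POLH -1.54 to -1.35, POLI -1.33 to -0.65, PRIMPOL -1.07 to -1.02, RAD18 0.61 to 0.67 and MMS22L 1.02 to 1.096, with 2 calls higher and 3 lower each time. Same-numbered libraries did not deviate together (r of 0.002, 0.019 and -0.039 for numbers 1, 2 and 3). No pairing by replicate number was thus detected, although these values cannot exclude that same-numbered samples were handled together. With the replicate numbers as a block, 2 of the genes were called higher and 3 lower. Depth limits POLI and the loci in REV3L and SHPRH most.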
